A study of Canis lupus familiaris with 20 samples.

Results

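IL15, the gene of the cytokine interleukin-15, was followed in muscle RNA of 10 dogs, all aged 2 years, through every array probe whose gene name is IL15. These were 2 of the 42034 probes that are no controls, and IL15 is 1 of 10379 genes with a symbol on the array. The gene was chosen with its values on these arrays known, so its levels and differences are given as a description, with no test. The disease states were 3, with 2 DMD escaper dogs, 4 DMD affected dogs and 4 normal dogs. DMD stands for Duchenne muscular dystrophy, a wasting disease caused by loss of dystrophin, and an escaper is a dog that carries the disease with mild signs. The labels call the tissue muscle without saying which muscle, name each dog separately, and give neither breed, sex, mutation, treatment nor kinship. Escaper dogs described in the literature are related animals, so the 2 escapers may not be independent. Each dog was hybridised on 2 arrays, once labelled with the dye Cy5 and once with Cy3, against a common reference made from RNA of 1 normal individual. Whether that individual is among the 4 normal dogs is not stated. The arrays came on 5 slides, and no slide carried dogs of more than 1 group, so no comparison of groups can be made within a slide. The escapers lay on 1 slide, where slide and group cannot be told apart, and affected and normal dogs lay on 2 slides each.

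Interleukin-15 is a secreted cytokine that skeletal muscle fibres, macrophages, dendritic cells and stromal cells are known to make. It is usually presented to its target cell by the alpha chain of its receptor, IL15RA, and signals through the beta chain IL2RB and the common gamma chain IL2RG to the kinases JAK1 and JAK3 and to STAT5. It supports natural killer cells and memory T cells, and it is called a myokine because contracting muscle releases it. In rodents it has been tied to muscle mass, oxidative metabolism and fat.

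The probes lie at different places of the gene, and their sequences are shown because the rest of the account compares them. The array files place the first at chr19:4341366-4341425 and the second at chr19:4343009-4343068, with 1583 bases between them. The files list each start above its end and name no genome build, and exons were not looked up because no genome of that build was used here. Each probe is 60 bases long, with 43.3% G or C in the first and 45% in the second. The first is called the stop codon probe here, since its first reading frame runs for 7 codons and then meets a stop, shown in capitals. The other 36 bases of that probe lie beyond the stop and are not printed. The second is called the coding probe, since its first reading frame is open over all 20 codons.
stop codon probe, bases up to the stop: caaatgttcatcaactcctctTGA
coding probe: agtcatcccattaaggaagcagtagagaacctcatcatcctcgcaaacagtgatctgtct

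IL15 was high in 1 escaper, escaper 2, on both probes and in both dye orientations, and the other escaper lay within the range of the affected and normal dogs. Levels are log2 ratios of dog over common reference, so that 0 means the level of the reference animal and 1 a level of 2 times it. At the stop codon probe, IL15 was −0.09 in escaper 1 and 1.07 in escaper 2. It was −0.72, −0.38, −0.13 and 0.09 in affected dogs 1 to 4. It was −0.27, 0.07, −0.33 and −0.12 in normal dogs 1 to 4. Escaper 2 stood above all 9 other dogs, whose values ran from −0.72 in affected 1 to 0.09 in affected 4 with a median of −0.13. Its IL15 was 2.30 times that median, 1.97 times the level of affected 4 and 2.23 times the level of escaper 1. Bulk RNA was measured, so more IL15 RNA per cell and more cells that make it cannot be told apart.

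The value of escaper 1 at the stop codon probe rests on 1 array, and it decides whether the escapers stand apart as a group. On its Cy3 array the log2 ratio was −0.09. On its Cy5 array the scanner software marked the local background of that spot as an outlier. The reference channel there had a local background of 1002 around a spot mean of 846, where the median local background of that array was 79. The dog channel had a local background of 153 around a spot mean of 262, where the array's median was 58.5. At this probe on the other 19 arrays the local background lay between 50 and 89.5 in the dog channel and between 52 and 93 in the reference channel. Spots with a background outlier were therefore left out on all arrays, a choice made after these values had been seen. With such spots kept and their local background subtracted, the Cy5 array gave 1.92 and escaper 1 came to 0.91, which put both escapers above every affected and normal dog. The scanner software's own processed signals for the same spot, which model the background over the array, gave escaper 1 a mean of −0.33 over its 2 arrays. At the coding probe, where both of its spots passed, escaper 1 was −0.06.

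At the coding probe, IL15 was −0.06 in escaper 1 and 0.75 in escaper 2. It was −0.43, −0.17, −0.25 and 0.10 in affected dogs 1 to 4. It was −0.26, −0.03, −0.05 and 0.04 in normal dogs 1 to 4, where the value of normal 2 rests on 1 array because its other spot had a background outlier. The order at the ends was that of the stop codon probe, with escaper 2 highest, affected 4 next and affected 1 lowest. Escaper 2 was 1.75 times the median of the other 9 dogs and 1.58 times the level of affected 4. The neighbours below escaper 2 in that order differed by less than the spread between dogs of a group. The pooled SD within groups, which includes the distance between the escapers, was 0.40 at the stop codon probe and 0.27 at the coding probe.

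**Figure D1:**
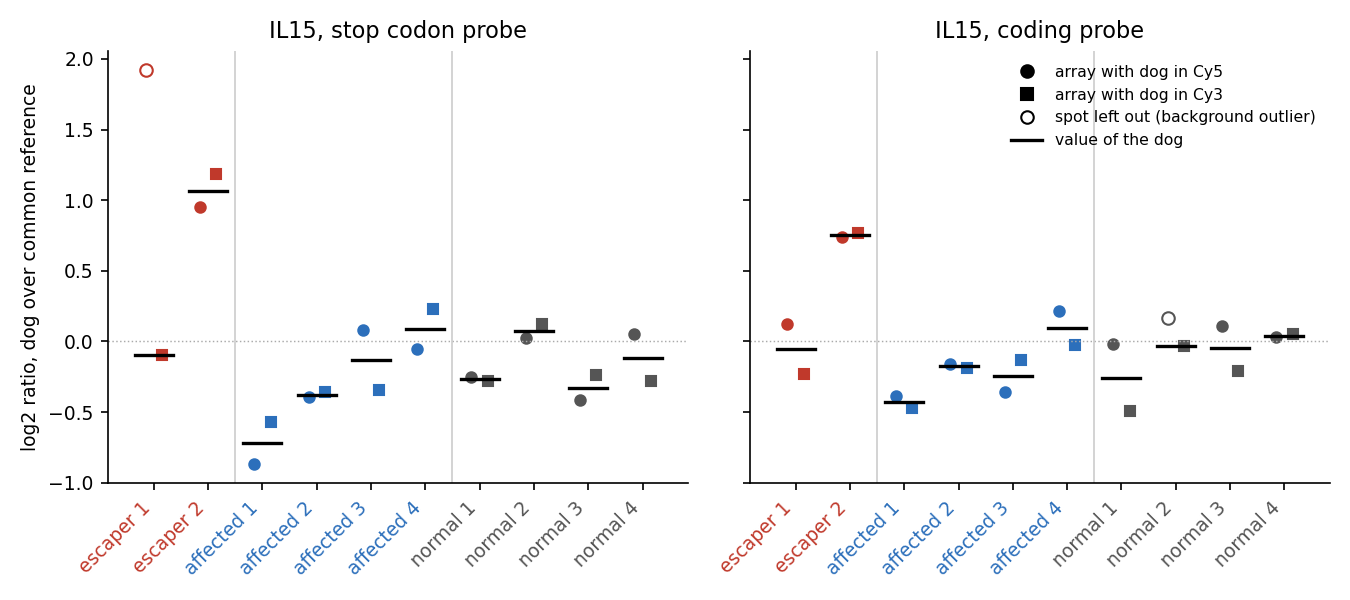
Log2 ratio of IL15 in each dog over the common reference, by array (circles, dog in Cy5; squares, dog in Cy3), with the value of the dog as a bar, at the stop codon probe (left) and the coding probe (right). Open circles are spots left out for a background outlier; escaper 2 lies at 1.07 and 0.75, above all 9 other dogs, and the open circle of escaper 1 lies at 1.92.

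The arrays of opposite dye gave the same picture in escaper 2. At the stop codon probe its ratios were 0.95 with the dog in Cy5 and 1.18 with the dog in Cy3. At the coding probe they were 0.74 and 0.77. Each of these values was above every array of every other dog that was kept, the highest of which was 0.23 at the stop codon probe and 0.22 at the coding probe, all on arrays of affected 4. Over the 9 dogs with both spots, the dye orientations differed by a median of 0.23 at each probe, and by at most 0.43 at the stop codon probe and 0.47 at the coding probe. The distance of escaper 2 from the next dog, 0.98 and 0.66, was larger than any of these.

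As groups, the escapers averaged 0.49 ± 0.82 (SD, n = 2) at the stop codon probe, affected dogs −0.28 ± 0.35 (n = 4) and normal dogs −0.16 ± 0.18 (n = 4). At the coding probe the means were 0.35 ± 0.57 in escapers, −0.19 ± 0.22 in affected dogs and −0.07 ± 0.13 in normal dogs. The groups overlapped in every comparison at both probes. Escapers minus affected dogs came to 0.77 (SE 0.32) at the stop codon probe and 0.54 (SE 0.23) at the coding probe. Escapers minus normal dogs came to 0.65 (SE 0.32) and 0.42 (SE 0.23). Each SE comes from the limma fit, which pools the spread within all groups and draws it toward that of all tested probes. It does not measure the spread of the escapers alone. The differences depend on which escaper is counted. Without escaper 2 the difference from affected dogs was 0.19 at the stop codon probe and 0.13 at the coding probe, and without escaper 1 it was 1.35 and 0.94. From normal dogs it was 0.07 and 0.02 without escaper 2, and 1.23 and 0.83 without escaper 1.

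IL15 in affected and normal dogs differed by less than the spread between dogs. Affected minus normal dogs came to −0.12 (SE 0.26) at the stop codon probe and −0.11 (SE 0.19) at the coding probe. Affected dogs spread wider than normal dogs, with ranges of 0.81 against 0.40 at the stop codon probe and 0.53 against 0.30 at the coding probe. Affected 1, the lowest dog, and affected 4, the second highest, belong to the same group. Without affected 1 the difference at the stop codon probe was 0.02, and without affected 4 it was −0.25.

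A gene on which escaper 2 stood alone was common on these arrays. Of the 15602 probes tested, escaper 2 was above all 9 other dogs in 4030 (25.8%) and below all of them in 3628 (23.3%). It was above them by at least the distance seen at the stop codon probe in 732 probes (4.69%), and by at least that of the coding probe in 1264 (8.1%). Escaper 1 lay within the range of the 8 affected and normal dogs in 13536 probes (86.8%), as it did at both IL15 probes. Keeping background outliers would have moved the difference of escapers from normal dogs by 0.50 at the stop codon probe of IL15. That difference moved by at least as much, in either direction, in 25 of the tested probes (0.16%), IL15 among them.

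The IL15 probes moved together across dogs. Their log2 ratios correlated with r = 0.95 and rho = 0.82 over the 10 dogs. Over the 9 dogs without escaper 2 these were r = 0.81 and rho = 0.75. Without escaper 2 and affected 1, the 2 dogs farthest from the median, they were 0.59 and 0.64 over 8 dogs. The probes share the arrays, the RNA and the reference of each dog, so these are descriptions of how well they agree.

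In processed intensities, the high ratio of escaper 2 lay in the dog channel. The processed intensity of escaper 2 at the stop codon probe was 2227 on its Cy5 array and 2812 on its Cy3 array, and no other dog passed 1043 on any array. At the coding probe it was 1028 and 942, against at most 467 elsewhere. The reference channel, which held the same RNA on every array, ran from 467 to 1060 with a median of 777 at the stop codon probe, and from 178 to 489 with a median of 310 at the coding probe. The highest processed reference intensity at each probe was on an array of escaper 2, which by itself lowers the ratio of processed signals. Spot means, from which the main ratios were made, were ordered otherwise. In the dog channel of escaper 2 they were 682 and 961 at the stop codon probe and 370 and 414 at the coding probe. On the Cy5 array of affected 4 the dog channel had 794 and 621 at these probes, and the reference channel 945 and 594. The dog channel spanned 6.26 times from lowest to highest at the stop codon probe, where the reference spanned 2.27 times, and 7.02 times at the coding probe, where the reference spanned 2.74 times. IL15 was well above background in the dog channel on 20 of 20 arrays at the stop codon probe and on 19 of 20 at the coding probe, the exception being the Cy3 array of normal 3. No IL15 spot was saturated.

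**Figure D2:**
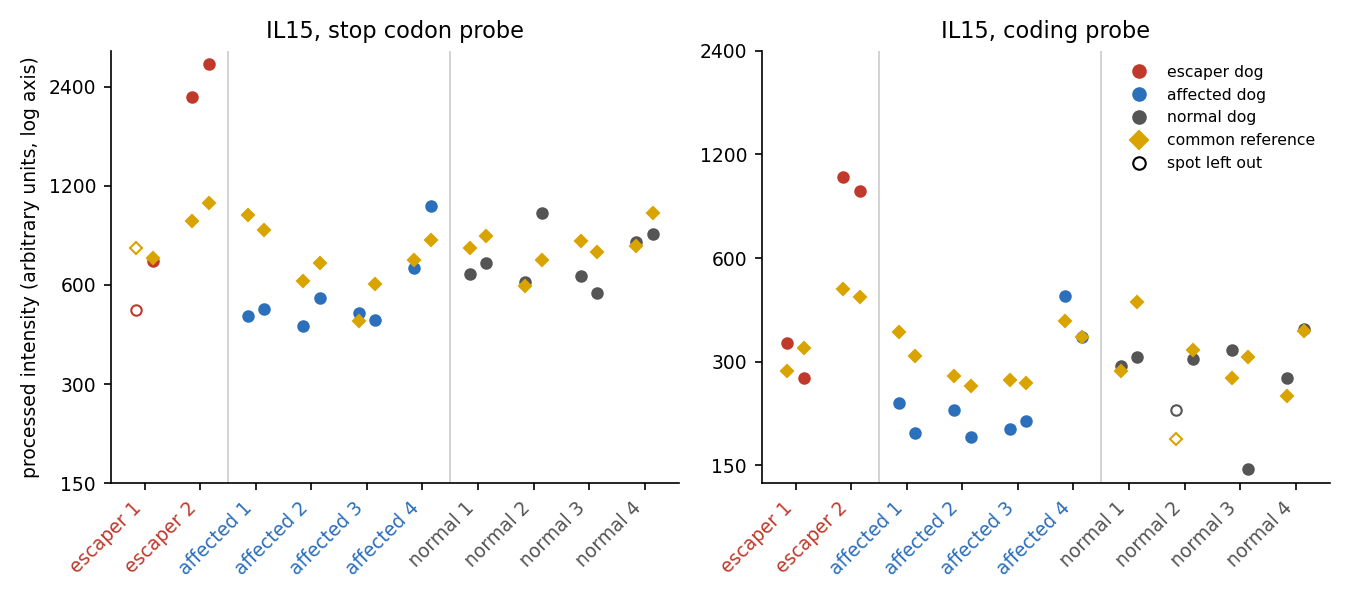
Processed intensity (arbitrary units, log axis) of IL15 on each array, in the dog channel (circles, coloured by group) and the common reference channel (diamonds), with the Cy5 array of a dog left and its Cy3 array right; open symbols are spots left out. The dog channel of escaper 2 reaches 2812 at the stop codon probe and 1028 at the coding probe, above every other dog.

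How the ratios are made moved the size of the IL15 differences and left escaper 2 on top. With the processed signals, escaper 2 was 1.33 at the stop codon probe and 1.05 at the coding probe, and escaper 1 was −0.03 and −0.01. With each array centred on its median in place of a loess curve, escaper 2 was 0.61 and 0.43, and escaper 1 was −1.02, the lowest of the 10 dogs, and −0.36. Escaper 2 was the highest dog at both probes under every one of these settings. Affected 1 was the lowest at both probes except with median centring, where it ranked 7 and 8 from the highest. The difference of escapers from affected dogs at the stop codon probe was 0.98 with processed signals, 0.30 with median centring and 1.27 with background outliers kept. From normal dogs it was 0.77, 0.18 and 1.15. Median centring moved the median of all tested probes to −0.17 in each escaper comparison, against −0.01 with loess. Relative to that median the mean of the escapers still lay above that of both groups at each probe, carried by escaper 2.

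**Figure D3:**
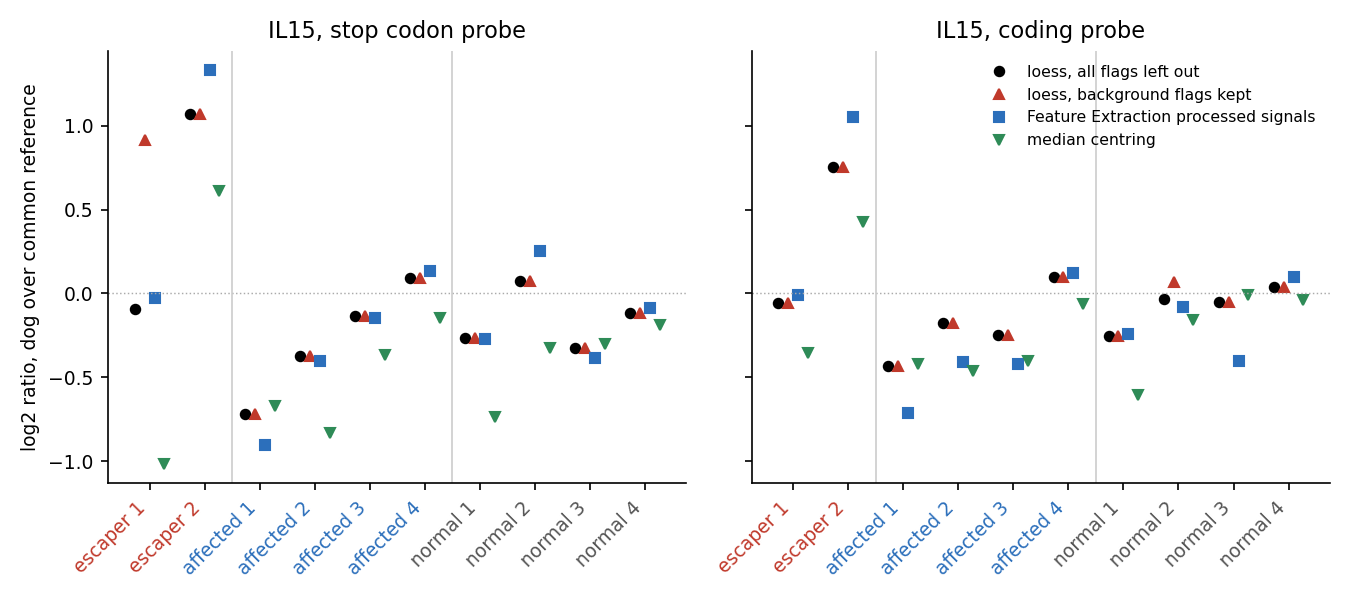
Log2 ratio of IL15 in each dog over the common reference under 4 ways of making the ratios, at the stop codon probe (left) and the coding probe (right). Escaper 2 is highest under each of them, while escaper 1 at the stop codon probe ranges from −1.02 with median centring to 0.91 with background outliers kept.

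Across the whole array, limma called 0 of 15602 probes between escapers and affected dogs (0%) at an adjusted p under 0.05, 0 between escapers and normal dogs (0%) and 3 between affected and normal dogs (0.0192%), 1 higher (0.00641%) and 2 lower (0.0128%). At an unadjusted p under 0.05 there were 815 probes (5.22%), 2821 (18.1%) and 1924 (12.3%) in the same order. Slides were nested in groups, so a slide block cannot part slide from group, and each block fit assumed a correlation shared by all probes. Their counts are given as alternatives only. With the slide as a random block, escapers against normal dogs gave 267 calls and affected against normal dogs 138, and with all 20 arrays fitted and the dog as a block they gave 941 and 305. Without escaper 1 they gave 3791 calls, and escapers against affected dogs gave 1684, with escaper 2 assumed to vary like the other dogs. The share of probes whose dog channel was well above background ran from 30.5% to 60.2% over arrays, and r between the arrays of the same dog ran from 0.62 to 0.94. The lists of genes around IL15 that follow were fitted with all probes and are described by counts and medians. Values are also given without members that were well above background on under 50% of the arrays of any group, which can pass the filter through the groups where they are high, and without members saturated on over 50% of all arrays. The median over all 6024 named genes was −0.03 for escapers minus affected dogs, 0.00 for escapers minus normal dogs and 0.04 for affected minus normal dogs.

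The receptor of IL15 was hardly measurable on this array. No probe carried the names IL15RA, IL2RB or JAK3, and the common gamma chain IL2RG, well above background on 2 of 20 arrays, was left untested. Of 13 genes listed for the receptor and its signalling, 10 had a probe and 7 were tested, and none was called in any comparison. Their median difference was −0.02 between escapers and affected dogs and −0.10 between escapers and normal dogs. JAK1, the kinase bound to the beta chain, was −0.60 and −0.53 in escapers, 0.82, −0.53, −0.46 and −0.51 in affected dogs, and 0.00, −0.34, −0.62 and −0.56 in normal dogs. The transcription factor STAT5B was −0.71 and −0.87 in escapers, 1.32, −0.35, −0.24 and −0.68 in affected dogs, and −0.13, −0.53, −0.53 and −0.58 in normal dogs. In both genes the dog that stood out was affected 1, the dog with the least IL15 in the loess ratios. Escaper 2 was the lowest dog in STAT5B, and in JAK1 it lay inside the range of the other affected dogs and of the normal dogs. STAT3 was −1.15 and −0.28 in escapers, with limma adjusted p = 0.99 against normal dogs. The adaptor SHC1 was −0.23 in escaper 1 and 0.69 in escaper 2, against −0.54 to −0.31 in normal dogs, with a limma difference of 0.66 (SE 0.24, adjusted p = 0.21; 0.41 with median centring). STAT5A was well above background on 4 arrays and AKT1 on 8, and neither was tested.

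Genes known to respond to IL15 signalling did not pass the test either. Of 9 listed feedback and survival targets, 7 were tested and 0 were called, with medians of −0.01 for escapers minus affected dogs and −0.06 for escapers minus normal dogs. The feedback inhibitor CISH, a known STAT5 target, was −0.02 and −0.20 in escapers, against −0.20 to 0.33 in affected dogs and −0.08 to 0.10 in normal dogs. SOCS3, another feedback inhibitor, was 0.16 and 0.37 in escapers, against −0.13 to 0.17 in affected and −0.11 to 0.10 in normal dogs (escapers minus normal dogs 0.23, SE 0.15, limma adjusted p = 0.41; 0.69 with processed signals, 0.095 with median centring), and its probe was well above background on 3 of 8 normal arrays. The growth regulator MYC was −1.88 in escaper 1 and 2.58 in escaper 2, against −1.48 to 0.19 in affected dogs and −2.23 to −1.19 in normal dogs (adjusted p = 0.31 against normal dogs). MYC thus shared with IL15 that escaper 2 was the highest dog and escaper 1 was not. The survival gene BCL2 was −0.38 in each escaper and highest in affected 1, at 3.18. Of 10 listed cytokines and receptors that share the common gamma chain, 2 were tested, IL4R and IL7R, with differences of −0.03 and 0.02 between escapers and normal dogs (adjusted p = 0.96 and 0.98), and none was called. IL4R was well above background on 1 of 8 normal arrays and IL7R on 3 of 8.

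Known inducers of IL15 transcription had their highest mean level in escaper 2. All 6 tested of 10 listed had a higher mean in escapers than in normal dogs, with a median of 0.54, and in escapers than in affected dogs, with a median of 0.31, and 0 were called. Their mean log2 ratio was −0.38 in escaper 1 and 0.86 in escaper 2, against −0.30 to −0.19 in affected dogs and −0.57 to −0.34 in normal dogs. IRF1, an interferon-induced transcription factor that acts on the IL15 promoter, was −0.25 in escaper 1 and 2.49 in escaper 2. It was −0.13, −0.22, −0.23 and −0.65 in affected dogs and 0.04, −0.10, −0.06 and −0.10 in normal dogs. Escaper 2 alone stood out, and the difference of escapers from normal dogs was 1.17 (SE 0.56, limma adjusted p = 0.30). The IRF1 probe was well above background on 3 of 4 escaper, 3 of 8 affected and 3 of 8 normal arrays, so most levels outside escaper 2 lie near the background. The interferon receptor chain IFNAR1 was −0.30 and 1.09 in escapers, −0.04, −0.31, −0.17 and 0.32 in affected dogs, and −0.79, −0.48, −0.79 and −1.14 in normal dogs (escapers minus normal dogs 1.20, SE 0.35, adjusted p = 0.20). The IFNAR1 probe was well above background on 1 of 8 normal arrays, and with processed signals its difference was 2.71. Without IRF1 and IFNAR1 the 4 left were still higher in escapers, with medians of 0.37 against normal dogs and 0.17 against affected dogs. Their mean was then −0.43 in escaper 1 and 0.40 in escaper 2, against −0.35 to −0.20 in affected dogs and −0.55 to −0.31 in normal dogs. The interferon genes IFNG and IFNB1 were well above background on 0 of 20 arrays.

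The mean level of the other myokines was highest in escaper 2, as IL15 was, and the mean level of the metabolic genes tied to IL15 was lowest in that dog. Single members departed from this, since BDNF was highest in affected 1 and VEGFA in normal 1, while UCP2 was highest in escaper 2 and TFAM and UCP3 were lowest in escaper 1 and affected 1. Of 22 listed myokines, 8 were tested, 6 had a higher mean in escapers than in normal dogs with a median of 1.63, and 0 were called. FSTL1, CCL2 and IGF1 were well above background on 0, 2 and 3 of 8 normal arrays, and SPARC was saturated on all 20 arrays. Of the 4 left without them, ANGPTL4 and DCN were higher in escapers and BDNF and VEGFA lower, with a median of 0.71. Their mean was −0.63 in escaper 1 and 0.79 in escaper 2, against −0.58 to 0.029 in affected dogs and −1.10 to −0.45 in normal dogs. In escaper 2, DCN was 3.36, ANGPTL4 1.32, VEGFA 0.33 and BDNF −1.87, so its mean rests largely on DCN. DCN is also listed as a fibroblast marker, so the myokine and fibroblast means share it. The order of the dogs without DCN was not tested. The mean of the 8 log2 ratio was −0.48 in escaper 1 and 1.56 in escaper 2, against −0.54 to 0.25 in affected dogs and −1.06 to −0.68 in normal dogs. The growth factor IGF1 was 0.12 in escaper 1 and 2.17 in escaper 2, −0.10, 0.07, 0.51 and 0.71 in affected dogs, and −0.36, −0.49, −0.41 and −0.61 in normal dogs (escapers minus normal dogs 1.61, SE 0.46, limma adjusted p = 0.20). Its levels in normal dogs lie near the background, and with processed signals the difference was 3.30. Of 11 listed oxidative metabolism regulators, 9 were tested, 8 had a lower mean in escapers than in normal dogs with a median of −0.53, and 0 were called. The exception, UCP2, was well above background on no normal array, and TFAM and ESRRA were so on 1 of 4 escaper arrays. With processed signals the difference was −1.45 in TFAM, the member at the median, and −1.87 in ESRRA. Without these 3, the 6 left were all lower in escapers, with a median of −0.72, and their mean was 0.11 in escaper 1 and −1.46 in escaper 2, against −1.05 to 0.24 in affected dogs and 0.069 to 0.28 in normal dogs. The mean of the 9 was −0.01 in escaper 1 and −1.02 in escaper 2, against −0.77 to 0.14 in affected dogs and 0.04 to 0.24 in normal dogs. PPARGC1A, a coactivator that drives mitochondrial genes, was −0.33 in escaper 1 and −2.94 in escaper 2. It was −2.51, −0.06, −0.53 and −0.89 in affected dogs, and 0.04, 0.19, 0.07 and 0.22 in normal dogs (escapers minus normal dogs −1.77, SE 0.73, adjusted p = 0.25). Escaper 2 and affected 1, the dogs with the most and the least IL15 in the loess ratios, were the lowest pair in PPARGC1A.

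The genes whose pattern over the 10 dogs was most like IL15 at the stop codon probe were ranked by Pearson r among 6023 genes. The 10 nearest were FAXC (0.985), GPSM3 (0.967), VASP (0.948), CEP170 (0.944), GOLM1 (0.940), CD40 (0.940), SUMO2 (0.938), VKORC1 (0.937), IL16 (0.932) and TBXAS1 (0.932). In all 10, escaper 2 was the highest dog, which ranking by r to a profile with escaper 2 far above the rest favours. CD40, a receptor of antigen-presenting cells, had the widest range, with 0.04 and 3.39 in escapers, −0.59, 0.12, 0.42 and 0.68 in affected dogs, and −0.24, 0.24, 0.44 and 0.31 in normal dogs. IL16, a chemoattractant cytokine, was −0.30 and 1.05 in escapers, −0.61, −0.44, −0.15 and 0.34 in affected dogs, and −0.36, −0.18, −0.61 and −0.45 in normal dogs. Without escaper 2 the r of the 10 ran from 0.73 in TBXAS1 to 0.95 in FAXC over 9 dogs. With all dogs 50 genes had an r of 0.9 or more, and without escaper 2 there were 3. The list rests on escaper 2 and on the choices made for IL15 itself. Of the 10, 1 stayed without escaper 2, 2 with Spearman's rho and 0 with background outliers kept.

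**Figure D4:**
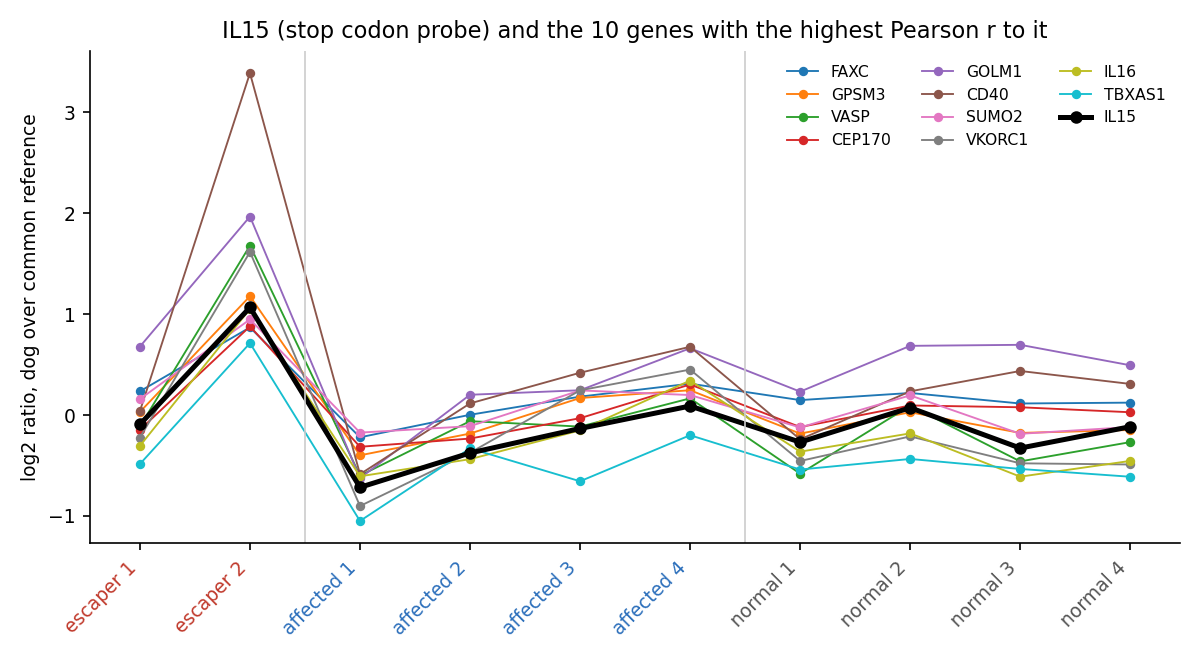
Log2 ratio of dog over common reference in each dog for IL15 at the stop codon probe (thick black line) and the 10 genes with the highest Pearson r to it. All 11 peak in escaper 2, which picking by r to the IL15 profile favours, and there CD40 reaches 3.39 and IL15 1.07.

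The mean levels of macrophage, fibroblast and endothelial markers were highest in escaper 2, as IL15 was. Those of adipocyte, satellite cell and T and natural killer cell markers, given further on, were not. Macrophage, monocyte and dendritic markers, 12 tested of 20 listed, had a mean log2 ratio of −1.11 in escaper 1 and 0.93 in escaper 2, against −1.14 to −0.16 in affected dogs and −1.65 to −1.35 in normal dogs. All 12 had a higher mean in escapers than in normal dogs, with a median of 1.20, and 0 were called. MRC1 and MSR1 were well above background on no normal array and ITGAM on 1 of 8, and without these 3 the median over 9 was 1.63. The macrophage gene LAPTM5 was −1.25 in escaper 1 and 1.36 in escaper 2, against −2.06 to −1.66 in normal dogs (limma adjusted p = 0.21). Fibroblast markers, 9 tested of 10, averaged −0.10 in escaper 1 and 2.05 in escaper 2, against −0.95 to 1.14 in affected dogs and −0.94 to −0.51 in normal dogs. Of the 9, 8 had a higher mean in escapers than in normal dogs, THY1 a lower one (difference −0.11), and 0 were called. Of these, COL1A1, PDGFRA and POSTN were well above background on no normal array and COL3A1 and FBN1 on 3 of 8. Without them the 4 left, which include THY1 and the listed myokine DCN, averaged −0.19 in escaper 1 and 2.48 in escaper 2. Affected dogs then ran from −1.26 to 1.25 and normal dogs from −1.14 to −0.49. Endothelial markers, 6 tested of 9, averaged −0.14 and 0.89 in escapers, against −0.53 to −0.04 in affected dogs and −0.15 to 0.18 in normal dogs. Among affected dogs the endothelial mean was lowest in affected 4 (−0.53), the affected dog with the most IL15. It was highest in affected 1 (−0.04), the affected dog with the least. The part of these cell types in the IL15 level was not tested.

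Skeletal muscle fibre markers ran the other way. The 6 tested of 15 listed averaged 0.90 in escaper 1 and −2.18 in escaper 2, against −1.44 to 0.75 in affected dogs and 0.70 to 0.83 in normal dogs. All 6 had a lower mean in escapers than in normal dogs, with a median of −1.44, and 0 were called. Titin, TTN, was 0.39 in escaper 1 and −3.05 in escaper 2, against 0.16 to 0.53 in normal dogs, with the probe saturated on 13 of 20 arrays. TNNT3 was saturated on 19 arrays, and without these 2 the other 4 averaged 0.93 in escaper 1 and −2.08 in escaper 2, against −1.53 to 0.85 in affected dogs and 0.91 to 1.19 in normal dogs. The lowest dogs in fibre markers were escaper 2 and affected 1, which held the highest and the lowest IL15 in the loess ratios. All dogs expressed fibre genes, and these 6 probes were well above background on at least 19 of 20 arrays. Satellite cell and immature fibre markers, 5 tested of 10, averaged −0.35 and 0.03 in escapers, against −1.92 to 0.36 in affected dogs and −2.24 to −1.90 in normal dogs, and 0 were called. Of these, MYH8 was saturated on 19 arrays, CHRNA1 was well above background on no normal array and MYF5 on 1 of 8. The 2 left, ACTC1 and CDH15, averaged −0.47 and 0.49 in escapers, −2.18 to 0.60 in affected dogs and −2.10 to −2.01 in normal dogs. Adipocyte markers, all 8 tested, averaged 0.23 and 0.16 in escapers, against −0.22 to 0.24 in affected dogs and −0.09 to 0.10 in normal dogs, and 0 were called. Without PLIN1, CIDEC and PLIN4, which were dim in at least 1 group, the 5 left averaged 0.24 and 0.34 in escapers, −0.31 to 0.37 in affected dogs and −0.26 to 0.10 in normal dogs. Of 18 T and natural killer cell markers, the cells that respond to IL15, only NKG7 was tested and it was not called (limma adjusted p = 0.38 for escapers minus normal dogs). NKG7 was 0.70 and −1.33 in escapers, −2.40, −0.44, 0.30 and −0.40 in affected dogs, and 0.52 to 1.18 in normal dogs. The lowest dog was thus affected 1, and the probe was saturated on 11 arrays. The defining T cell markers CD3D, CD3E and CD3G were well above background on 4, 3 and 4 of 20 arrays.

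**Figure D5:**
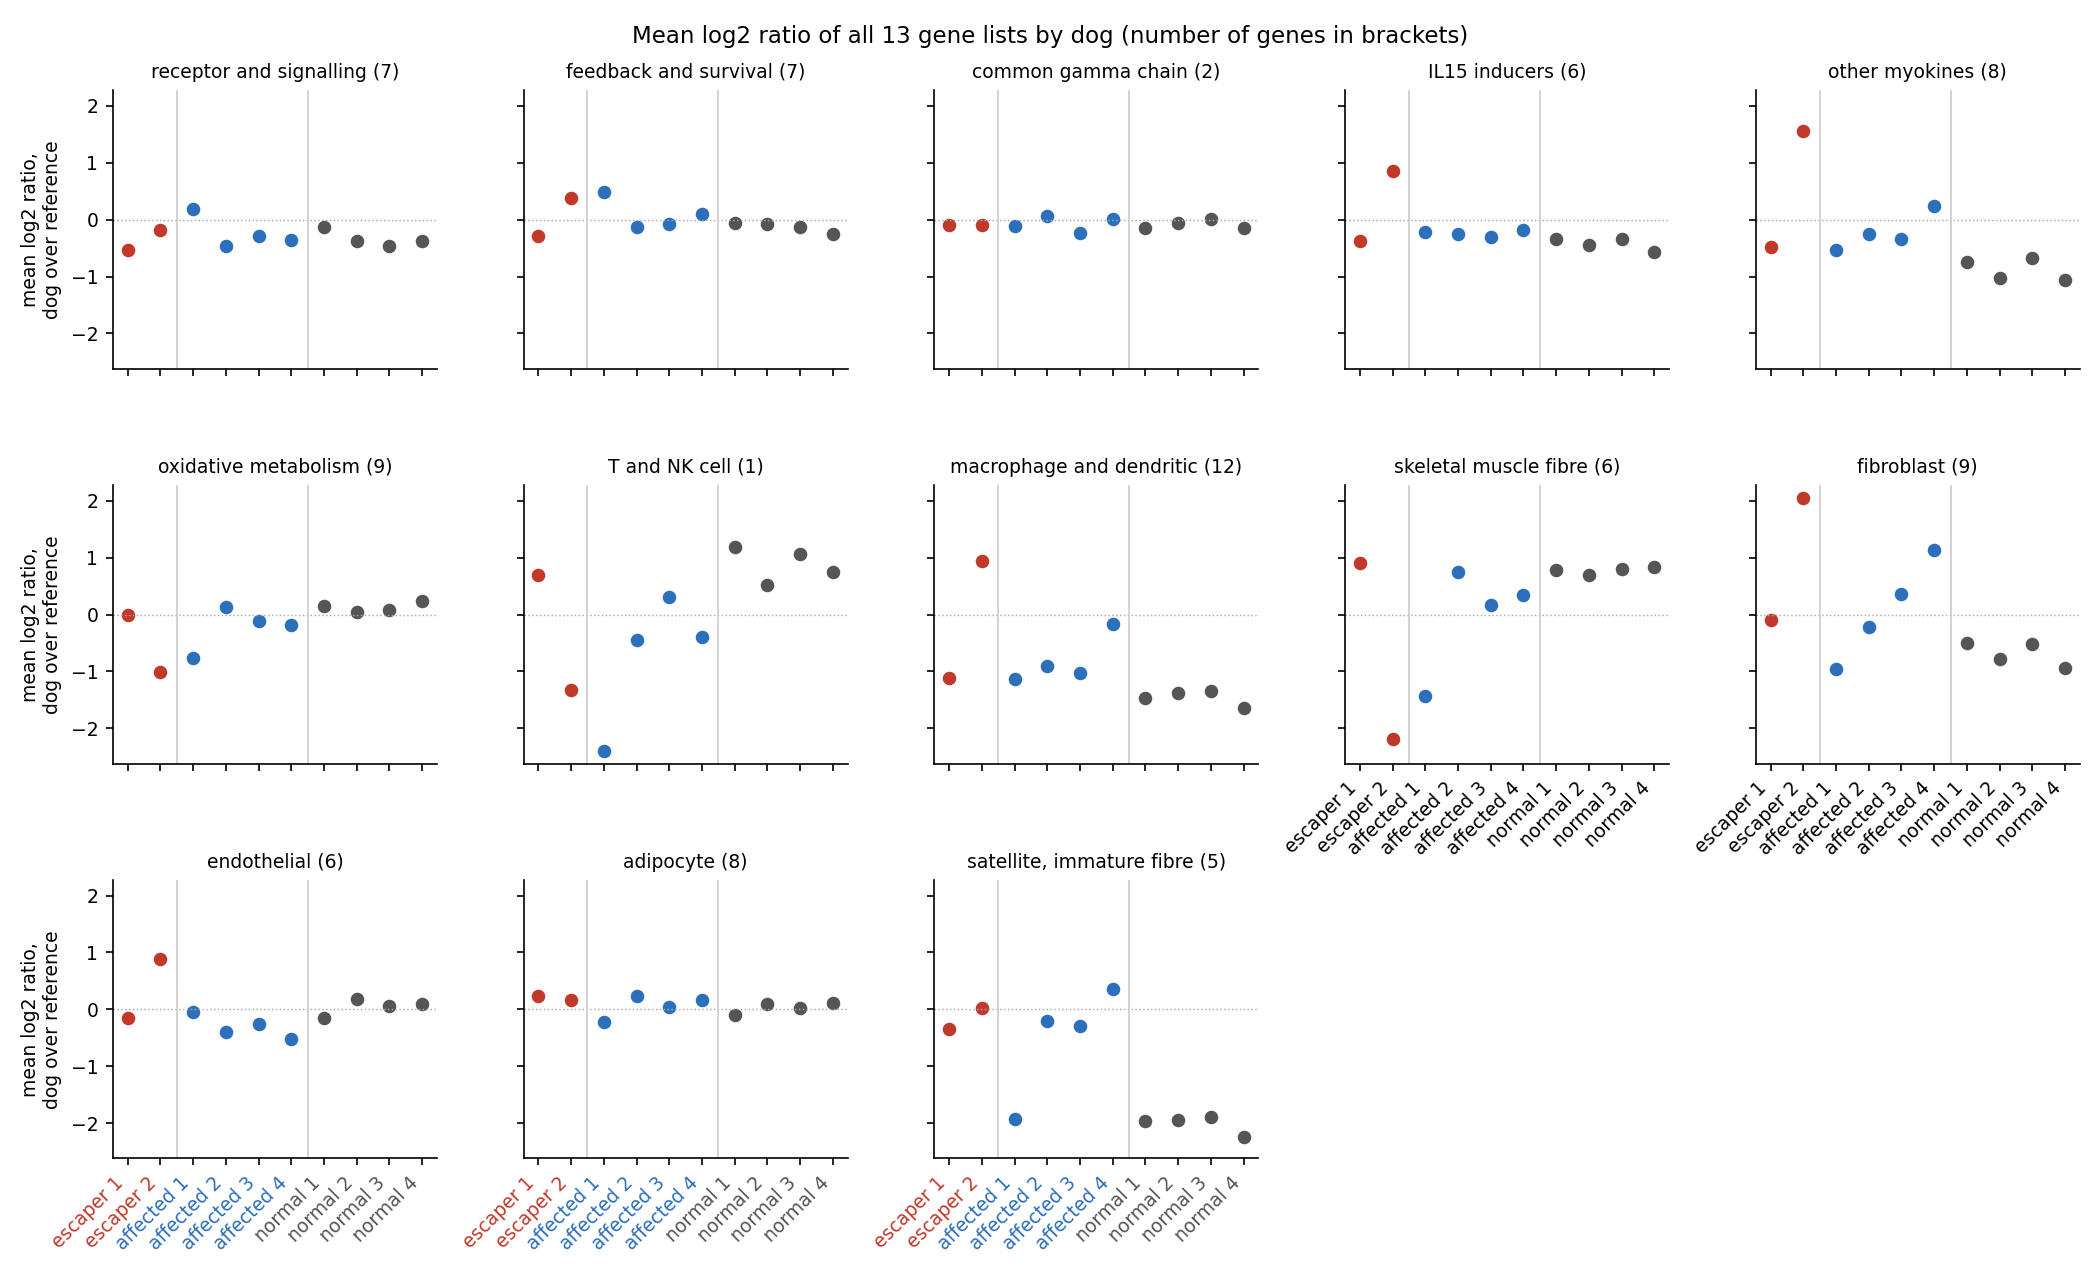
Mean log2 ratio of dog over common reference in each dog, for all 13 lists of genes (number of genes tested in brackets). Escaper 2 is the highest dog in 5 lists and the lowest in 2, oxidative metabolism at −1.02 and skeletal muscle fibre markers at −2.18, and it lies between other dogs in the remaining 6.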

How the data were processed

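Per the file headers, arrays were quantified with Agilent's Feature Extraction, version 9.5.3.1. Its deposited output gives, for each colour, a spot's mean intensity and its median local background intensity. Processed intensities, corrected by the software for background and dye, and outlier flags stand beside them. The value table deposited by the authors is on the log2 scale. Each of its columns matched the processed dog signal over the processed reference signal (r = 1), with swapped dyes already turned; it is not centred, with column medians from −0.16 to 0.25, and why is unknown. The aligner or build behind the probe positions is not given in the sources used here.

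From mean and background signals, 20 arrays of 10 dogs on 5 slides were corrected with normexp (offset 50) and loess in limma 3.58.1 (R 4.3.3), with no weight for the 1417 control spots. Spots with an outlier flag on the spot or its local background were left out, 3.89% of all (2.75% to 12.6% by array). A first version left out spot flags only, 0.53% of spots; background flags were added after the IL15 values of escaper 1 had been seen. The 2 arrays of a dog were averaged, so the dog is the replicate. Probes well above background on both arrays of at least 2 dogs (16130) and with a value in every dog were tested, 15602 in all. A limma fit of 3 groups gave adjusted p-values (Benjamini-Hochberg, 0.05). Symbols of 12270 probes came from the files and a RefSeq gene table, and a gene is represented by its probe of highest mean intensity. The fit was tested on simulated data.

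IL15, the lists and the tests were chosen with earlier results of these data known. Named genes are, from each list, the 3 with the smallest p in escapers minus normal dogs, 8 receptor and signalling genes, and the 10 genes most like IL15; single members outside this rule, such as CISH, were added after their values were seen. Lists cover the IL15 receptor and signalling, feedback and survival targets, common gamma chain genes, inducers, myokines, oxidative metabolism and 7 groups of cell type markers. Alternatives changed the signal, the normalisation, the dye, the filter, the block, the variance model, the groups in the fit and the dogs. The number of arrays limits precision.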

Additional observations from a re-analysis of the deposited data

Results flagged for a closer look

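Neither IL15 probe had a dog far from the rest of a group of 4. Over the IL15 probes and the genes named around IL15, 6 of 100 groups of 4 dogs had a dog whose gap to the nearest of the others, as a share of the whole range, was above Dixon's critical value, and chance gives about 1 in 20. JAK1, the kinase of the IL15 receptor, was 0.82 in affected 1, against −0.53 to −0.46 in the other affected dogs (share 0.948). STAT5B was −0.13 in normal 1, against −0.58 to −0.53 in the other normal dogs (0.876). SOCS3 was −0.11 in normal 1, against 0.07 to 0.10 (0.858). TFAM was 0.28 in affected 3, against −0.08 to −0.06 (0.948). Of the genes most like IL15, GPSM3 was 0.03 in normal 2, against −0.18 to −0.15 (0.830), and VKORC1 was −0.21 in normal 2, against −0.49 to −0.46 (0.875).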

How the results depend on the processing

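The direction of the IL15 differences of escapers held under the alternatives run, and their size did not. At the stop codon probe, escapers minus affected dogs was 0.77 and became 0.30 with median centring, 1.26 with the dog in Cy5 only (escaper 2 alone), 1.27 with background outliers kept, and 0.19 to 1.35 leaving out each dog. Escapers minus normal dogs was 0.65 and became 0.18, 1.10, 1.15 and 0.067 to 1.23. Affected minus normal dogs ran from −0.21 to −0.09 over the other settings and from −0.25 to 0.02 leaving out each dog. At the coding probe, escapers minus affected dogs was 0.54 and became 0.88 with processed signals or the deposited value table, and 0.13 to 0.94 leaving out each dog; escapers minus normal dogs was 0.42 (0.02 to 0.83). The lowest and highest escaper values came without escaper 2 and without escaper 1. Keeping background outliers was added after the data were seen. The cause of these shifts was not tested. Probes called between escapers and affected dogs stayed at 0 except without escaper 1 (0 to 1684 leaving out each dog). Between escapers and normal dogs the count of 0 became 5 with processed signals or the value table, 1 with no filter, 267 with the slide block, 941 with all 20 arrays, 1 with the 2 groups alone and 0 to 3791 leaving out each dog, the highest without escaper 1. Between affected and normal dogs the count of 3 became 29 with processed signals or the value table, 7 in Cy5 only, 138 with the slide block, 305 with all 20 arrays, 8 with trend and robust variance, 111 with the 2 groups alone and 0 to 111 leaving out each dog. Among named genes, the difference of escapers from normal dogs changed sign in IL4R (0.052 with processed signals or the value table, 0.063 in Cy5 only, 0.084 with background outliers kept), IL7R (−0.15 with median centring, −0.077 in Cy3 only), ESAM (−0.34 with processed signals or the value table) and STAT3 (0.037 with background outliers kept). Leaving out a dog, sign changes ranged as follows: MYC −0.25 to 4.21, IL4R −0.39 to 0.34, IL7R −0.34 to 0.38, IRF1 −0.20 to 2.54, TTN −3.35 to 0.093, ESAM −0.038 to 0.36, STAT3 −0.45 to 0.43, CEP170 −0.17 to 0.86 and CD40 −0.14 to 3.20. Leaving out list members that were dim in a group or saturated, an alternative added after the data were seen, turned the median of none of the 11 lists with members left; it moved that of the other myokines to 0.71, of fibroblast markers to 2.29 and of satellite cell markers to 2.06. No paired analysis was possible because the groups hold different dogs and the labels give nothing that pairs them. With 2 escapers on 1 slide, differences of this size rest on 1 animal.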
